A study of Homo sapiens with 6 samples.

Results

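Pleiotrophin (PTN) and midkine (MDK) are a pair of small secreted growth factors that bind heparan sulfate, and the genes described here are those 2 ligands with 8 cell-surface heparan sulfate proteoglycans that can hold them. The 10 genes were taken by symbol from a deposited table of 61806 genes: PTN, MDK, the syndecans SDC1, SDC2, SDC3 and SDC4, and the glypicans GPC2, GPC3, GPC4 and GPC6. RNA came from HEK293 cells, an established human line of adenovirus-transformed embryonic kidney cells. There were 3 libraries of each of 2 genotypes, HEK293 cells into which the single-nucleotide variant rs16851030 had been brought by CRISPR homology-directed repair (called mutant here) and wild-type HEK293 cells. The variant belongs to ADORA1, the adenosine A1 receptor gene, and the comparison asks which transcripts differ between the edited and the unedited cells. The labels give both groups the same medium and name no other treatment, but leave unsaid if 1 edited clone or several gave the mutant libraries. The p-values below therefore measure the spread between these libraries only.

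Heparan sulfate is a long, sulfated sugar chain built in the Golgi apparatus onto serine residues of a core protein. Syndecans are transmembrane cores and glypicans are cores tethered to the membrane by a lipid anchor. Both present heparin-binding growth factors to their receptors, and which factors bind depends on where sulfate groups sit along the chain. Pleiotrophin and midkine are highly expressed in the developing nervous system and kidney. Receptors reported for them include the receptor phosphatase PTPRZ1, the kinase ALK, LRP1 and integrins.

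Assigned counts totalled 16013460 to 20349609 per library, and levels are given as FPKM (fragments per kilobase of exon, scaled to the assigned counts of the library). ADORA1 itself was at 34 to 48 counts in mutant and 29 to 44 in wild-type libraries. Of 10 genes known from the HEK293 line, 8 had a mean of at least 1 FPKM. The summed level of those 10 was 150 to 155 FPKM in the mutant and 202 to 233 in the wild type, most of it vimentin. Of 15 markers of blood, endothelial, fibroblast, hepatic, squamous and glial cells, 0 reached that mean, with PTPRC, CD3E and HBB at 0 FPKM in every library. Their summed level was 1.65 to 2.14 FPKM in the mutant and 1.12 to 1.44 in the wild type, and the part of such cells in the results was not tested.

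All 10 genes had a mean of at least 1 FPKM over the 6 libraries and so entered the fit over 12550 genes. PTN and GPC2 did so only through their mutant levels. The set was selected on the measured levels of these libraries, with mutant and wild-type values known, so their differences are given as a description with no test. In edgeR's quasi-likelihood fit 8 of the 10 had an adjusted p below 0.05 with the higher level in the mutant, where 29.4% of all tested genes were called higher and 28.7% lower. Nothing is read from that count, since the same values chose the genes. MDK and GPC3 were the other two. All 3 mutant values lay above all 3 wild-type values for 9 of the 10 genes, as they did for 34.8% of all tested genes. The median log2 fold change (mutant minus wild type, as throughout) of the 10 genes was 0.89, beside -0.00071 over all tested genes.

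**Figure D1:**
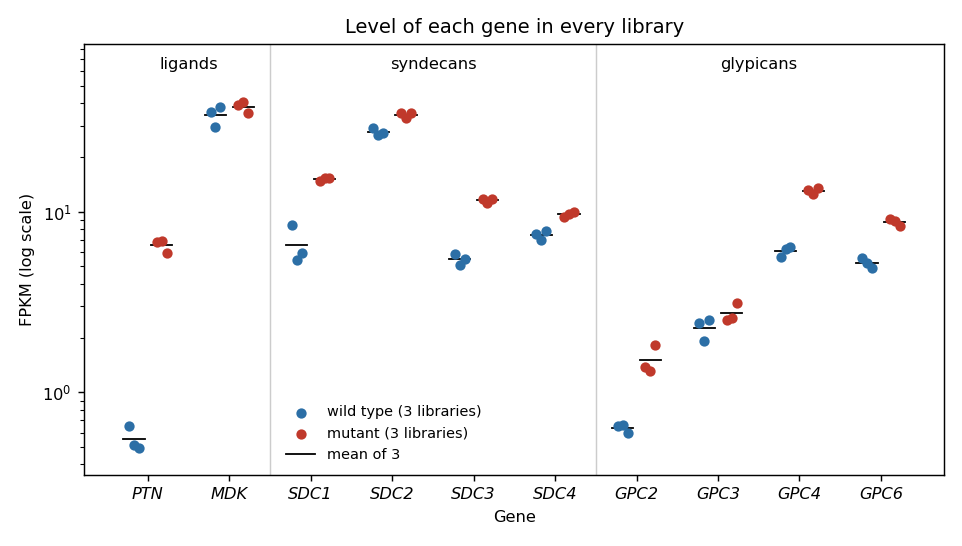
Level of each gene in every library (FPKM, log axis), with wild-type libraries in blue, mutant libraries in red and a bar at the mean of 3. PTN lay at 0.49 to 0.65 FPKM for wild type and 5.89 to 6.92 for mutant, and MDK is the only gene whose groups overlap.

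PTN, which encodes pleiotrophin, had the largest difference of the 10 genes. Its level was 6.85, 6.92 and 5.89 FPKM in mutant libraries 1 to 3 and 0.65, 0.51 and 0.49 FPKM in wild-type libraries 1 to 3. All mutant libraries were high and all wild-type libraries low, with a wide gap between the groups. They rest on 226, 189 and 153 mutant counts and on 19, 14 and 14 wild-type counts, so few fragments carry the wild-type level. The means were 6.55 ± 0.576 and 0.550 ± 0.0872 FPKM (SD, n = 3), and the fitted difference was 11.6-fold, a log2 fold change of 3.53 (SE 0.19, 95% interval 3.14 to 3.94). In these bulk libraries more cells with PTN transcripts and more PTN RNA per cell cannot be told apart.

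MDK, the gene of midkine, was the most abundant of the 10 genes in both groups. It stood at 39.19, 40.40 and 35.26 FPKM across the mutant libraries, against 35.51, 29.42 and 37.90 across the wild type. Wild-type library 3 exceeded mutant library 3, and the groups overlap. The log2 fold change was 0.13 (SE 0.07), with a 95% interval of -0.03 to 0.28, which includes no difference and extends to about the size seen for SDC2. In FPKM, which depends on the exonic length given for each gene, MDK exceeded PTN 54.6- to 77.3-fold in the wild-type libraries. In the mutant libraries it did so 5.72- to 5.99-fold. As a share of the summed FPKM of both ligands, PTN was 1.59 ± 0.278% for wild type and 14.6 ± 0.283% for mutant (SD, n = 3).

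PTN lies on the minus strand of chromosome 7 (GRCh38, 137227341 to 137343774). Of the 4 other protein-coding genes that start within 1 Mb of its start, AKR1D1, DGKI and CHRM2 stayed at or below 0.02 FPKM in every library. CREB3L2, a membrane-bound transcription factor gene, was tested and rose to 18.7 ± 0.796 FPKM from a wild-type 14.7 ± 0.722 (SD, n = 3), by 0.32 on the log2 scale (SE 0.05, edgeR adjusted p = 1.62e-05). The median log2 fold change of the 25 tested genes nearest to PTN was -0.02. The 5 tested genes whose profile over the 6 libraries was closest to that of PTN were PCK2 (Euclidean distance 0.277), H2BC21 (0.499), DDIT4 (0.512), ALDH1A1 (0.577) and COL12A1 (0.583), measured on log2(CPM + 1) values centred on each gene's wild-type mean. Their fitted log2 fold changes, in that order, were 2.58, 2.66, 2.50, 3.53 and 3.06, against 3.53 for PTN. ALDH1A1 (wild-type mean 0.217 FPKM) and COL12A1 (0.250 FPKM) reached the expression minimum only through their mutant levels. Because the 5 genes were picked for likeness to PTN, their rise was fixed by the choice and nothing is read from it. The 1 added to each CPM shrinks differences at low levels, so a small distance does not mean an equal fold change. These genes encode a mitochondrial phosphoenolpyruvate carboxykinase, a histone, an inhibitor of mTOR signalling, a retinaldehyde dehydrogenase and a fibril-associated collagen. H2BC21 has close relatives among histone genes and its value is uncertain.

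The syndecans were all higher in the mutant, SDC1 and SDC3 about 2-fold and SDC2 and SDC4 by much less. SDC1, the syndecan typical of epithelia and plasma cells, stood at 14.88, 15.39 and 15.43 FPKM across the mutant libraries, against 8.41, 5.41 and 5.94 across the wild type. The wild-type libraries were spread more widely than the mutant ones, with library 1 the highest, and none reached a mutant value. The log2 fold change was 1.17 (SE 0.11, 95% interval 0.95 to 1.40). SDC3, the syndecan best known from neurons and a receptor for pleiotrophin in axon growth, stood at 11.82, 11.17 and 11.82 FPKM among mutant libraries, against 5.82, 5.09 and 5.47 among wild-type ones. Its groups were each narrow and far apart, with a log2 fold change of 1.05 (SE 0.06, 95% interval 0.93 to 1.18).

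SDC2 was the most abundant proteoglycan of the 8 in both groups. It is a syndecan of mesenchymal and neural cells. Its level was 35.34, 33.12 and 35.09 FPKM across the mutant libraries, against 29.11, 26.70 and 27.47 across the wild type. The groups did not overlap, and the log2 fold change of 0.28 (SE 0.05, 95% interval 0.18 to 0.38) was the smallest among the syndecans. SDC4, a widely expressed syndecan of focal adhesions, stood at 9.35, 9.75 and 9.92 FPKM among mutant libraries, against 7.53, 6.99 and 7.87 among wild-type ones, again without overlap, with a log2 fold change of 0.34 (SE 0.08). SDC4 lies on chromosome 20, where the median log2 fold change of the 328 other tested genes was -0.13.

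Because SDC1 and SDC3 differed more than SDC2, the make-up of the syndecan transcripts differed between the groups. SDC2 held 58.8 ± 1.60% of the summed syndecan FPKM for wild type and 48.6 ± 0.900% for mutant (SD, n = 3). SDC1 held 13.8 ± 2.35% and 21.5 ± 0.667%, and SDC3 11.6 ± 0.133% and 16.3 ± 0.235%. The summed level of the 4 syndecans was 47.3 ± 3.37 FPKM for wild type and 71.0 ± 1.45 for mutant, a ratio of 1.5.

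**Figure D2:**
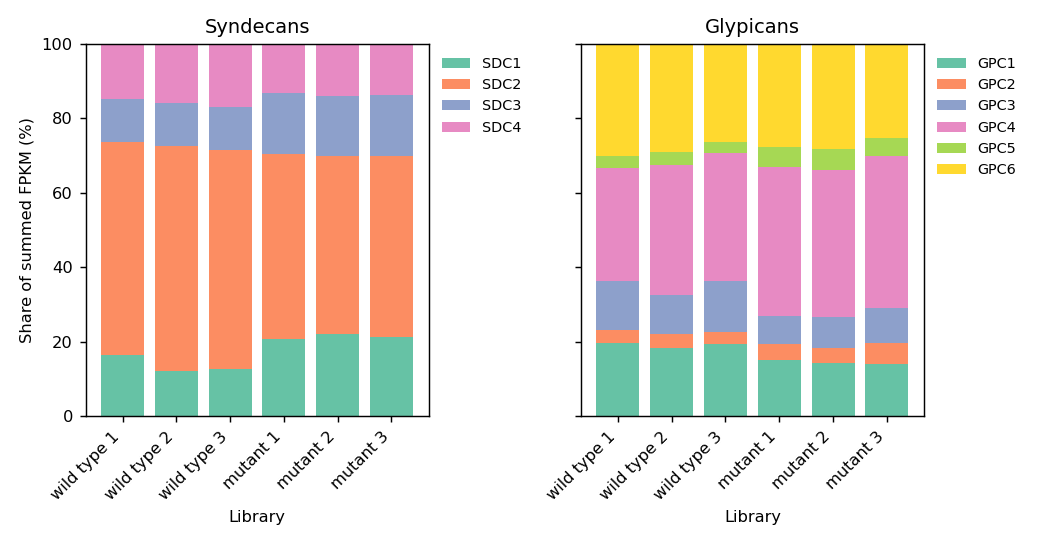
Share of each gene in the summed FPKM of the 4 syndecans (left) and of the 6 glypicans (right, with GPC1 and GPC5 added) in each library. SDC2 takes 57.2 to 60.4% of the syndecan total in the wild-type libraries and 47.7 to 49.5% in the mutant libraries, and GPC4 takes 30.4 to 34.9% and 39.6 to 40.7% of the glypican total.

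Among the glypicans, GPC4 and GPC6 were clearly higher in the mutant, GPC2 was higher at a low level, and the interval of GPC3 included no difference. GPC4, a glypican of neural and renal epithelial progenitors, was the most abundant. It stood at 13.28, 12.54 and 13.47 FPKM across the mutant libraries, against 5.60, 6.25 and 6.42 across the wild type. The groups lay far apart, with a log2 fold change of 1.07 (SE 0.07, 95% interval 0.93 to 1.21). GPC3, a glypican that restrains growth and is altered in an overgrowth syndrome, is the neighbour of GPC4 on chromosome X. It stood at 2.53, 2.59 and 3.12 FPKM among mutant libraries, against 2.41, 1.92 and 2.52 among wild-type ones. These groups came within 0.01 FPKM of each other, and the log2 fold change was 0.23 (SE 0.14, 95% interval -0.07 to 0.52), an interval that lies below that of GPC4. The value rests in part on single libraries: it was 0.13 without mutant replicate 3 and 0.12 without wild-type replicate 2. The ribosomal protein pseudogene RPS24P19 lies within GPC3 on the other strand and reached 19.95 FPKM, and whether counting used strand is unknown here, so GPC3 values are uncertain to that extent.

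GPC6, a glypican needed for growth of long bones, stood at 9.14, 8.90 and 8.37 FPKM across the mutant libraries, against 5.53, 5.18 and 4.90 across the wild type. The groups did not overlap, and the log2 fold change was 0.73 (SE 0.06, 95% interval 0.59 to 0.86). The 25 tested genes nearest to GPC6 on chromosome 13 had a median of 0.21, the largest such local median of the 10 genes. GPC2, a glypican of differentiating neurons known as a binding partner of midkine, stood at 1.38, 1.32 and 1.84 FPKM among mutant libraries, against 0.65, 0.66 and 0.60 among wild-type ones. Its log2 fold change of 1.20 (SE 0.19, 95% interval 0.81 to 1.59) was the second largest of the 10 genes, behind PTN, from the lowest proteoglycan level.

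The rest of the glypican family, which was not part of the chosen genes, was tested. GPC1 rose to 4.72 ± 0.255 FPKM from a wild-type 3.50 ± 0.202 (SD, n = 3; log2 fold change 0.40, SE 0.08, edgeR adjusted p = 2.32e-04). GPC5, which neighbours GPC6 on chromosome 13, stood at 1.74 ± 0.114 FPKM for mutant and 0.600 ± 0.0346 for wild type (SD, n = 3) and reached the expression minimum only through its mutant level. With no expression minimum the log2 fold change of GPC5 was 1.47 (edgeR adjusted p = 1.25e-12). The summed level of the 6 glypicans was 18.3 ± 0.373 FPKM for wild type and 32.6 ± 0.811 for mutant, a ratio of 1.78. GPC4 held 33.3 ± 2.50% of that sum for wild type and 40.1 ± 0.575% for mutant (SD, n = 3).

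**Figure D3:**
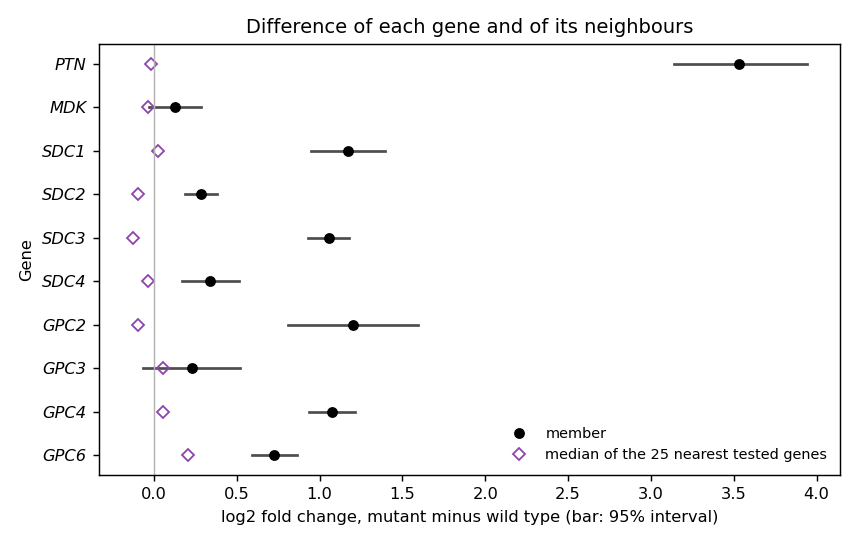
Log2 fold change of each of the 10 genes (black, bar: 95% interval) and the median of the 25 tested genes nearest to it (purple diamond). The gene values run from 0.13 for MDK to 3.53 for PTN, and the local medians from -0.13 to 0.21.

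The order of the 10 levels differed between the groups. FPKM was scaled to the exonic length given for each gene, which can differ from the length of the transcripts present. Levels of different genes therefore compare only roughly, while both groups share the length of each gene. In the wild type MDK and SDC2 led, at 34.3 ± 4.37 and 27.8 ± 1.23 FPKM (SD, n = 3), followed by SDC4, SDC1, GPC4, SDC3 and GPC6 between 7.46 and 5.20 FPKM. Within these 5 genes neighbours in that order overlapped, while GPC6 did not overlap the gene below it. GPC3 followed at 2.28 FPKM, then GPC2 and PTN, whose values overlapped. In the mutant MDK and SDC2 again led, now with overlapping values. Below them SDC1, GPC4, SDC3, SDC4, GPC6, PTN, GPC3 and GPC2 followed in separate steps, with no overlap between neighbours. SDC4 thus stood above SDC1, GPC4 and SDC3 by its wild-type mean and below all of them in the mutant, and PTN moved from last to eighth place.

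RefSeq promoter windows on GRCh38.p14 were matched for 7 of the 10 genes, all but MDK, SDC2 and GPC3. Each covers the 250 bases before the RefSeq start, cut to 209 for PTN because the deposited gene starts 41 bases further out. The SDC1 window stops short of the deposited gene start, and 1 other SDC1 window was left out because it lay inside the deposited gene. They are shown for PTN and for SDC3 and GPC4, a syndecan and a glypican that were about 2-fold higher, since these promoters differ in base composition while the transcripts were all higher in the mutant. Each is 5′ to 3′ on the gene's own strand, the minus strand for all 3, at chr7:137343775-137343983, chr1:30908759-30909008 and chrX:133415490-133415739, and capitals mark the GC box motif GGGCGG on either strand.
PTN: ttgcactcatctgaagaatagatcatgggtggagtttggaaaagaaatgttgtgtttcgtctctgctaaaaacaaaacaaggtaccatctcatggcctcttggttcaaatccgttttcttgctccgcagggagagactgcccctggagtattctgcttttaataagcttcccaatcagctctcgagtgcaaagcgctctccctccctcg
SDC3: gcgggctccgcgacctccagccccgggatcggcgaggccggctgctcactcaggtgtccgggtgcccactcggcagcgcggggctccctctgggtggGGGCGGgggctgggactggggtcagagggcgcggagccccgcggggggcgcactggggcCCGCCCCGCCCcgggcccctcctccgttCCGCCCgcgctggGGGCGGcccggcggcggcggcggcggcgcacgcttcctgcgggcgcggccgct
GPC4: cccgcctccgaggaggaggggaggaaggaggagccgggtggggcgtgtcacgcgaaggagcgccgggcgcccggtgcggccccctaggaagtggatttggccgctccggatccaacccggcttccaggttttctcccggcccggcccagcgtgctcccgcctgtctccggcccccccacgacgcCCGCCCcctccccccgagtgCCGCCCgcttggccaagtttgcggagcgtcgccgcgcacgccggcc

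G and C made up 46.4% of the PTN window, 83.6% of the SDC3 window and 76.0% of the GPC4 window, where the median over 35116 windows of 250 bases was 58.0%. GGGCGG occurred 5 times in the SDC3 window, overlaps counted, 2 times in that of GPC4 and 0 times in that of PTN. It was present in the windows of 5 of the 7 genes (SDC1, SDC3, SDC4, GPC2 and GPC4), in 42.6% of all windows of 250 bases and in 36.9% of those of 209. GPC6, at 37.6% G and C, had none and was the only one with the TATA box motif TATAAA, which 10.7% of all windows of 250 bases held. The AP-1 motif TGANTCA and the EGR motif GCGTGGGCG, searched on both strands, were in 0 of these 7 windows and in 6.57% and 0.72% of all windows of 250 bases. These are matches of letters in a fixed window and say nothing of binding.

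Receptors of both ligands were tested as genes outside the chosen 10. Of 18 listed receptors and ALK ligands, 13 were tested. Of these, 8 rose, 2 fell and 3 did not pass, with a median log2 fold change of 0.42. For this list and those below, the background is the 29.4% of all tested genes called higher and the 28.7% called lower. The lists were chosen with earlier results of these data known, so nothing is read from their counts. PTPRZ1, the receptor phosphatase that pleiotrophin inactivates, stood at 1.59, 1.51 and 1.66 FPKM across the mutant libraries, against 0.61, 0.51 and 0.57 across the wild type. PTPRZ1 reached the expression minimum only through its mutant level and fell short of it without any 1 mutant library. Its test with the minimum therefore depends on the difference itself, and PTPRZ1 is counted among the 8 that rose. With no expression minimum its log2 fold change was 1.43 (edgeR adjusted p = 1.23e-26). This p-value comes from the separate fit over 32852 genes and cannot be ranked against those of the other receptors. LRP1, an endocytic receptor for midkine, rose to 5.18 ± 0.565 FPKM from a wild-type 2.25 ± 0.306 (SD, n = 3; log2 fold change 1.17, SE 0.08, edgeR adjusted p = 2.83e-09).

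The receptor phosphatase PTPRS binds heparan sulfate and chondroitin sulfate chains, and PTPRF is its close relative. PTPRF rose to 36.1 ± 0.709 FPKM from 21.7 ± 1.34 in wild-type cells (log2 fold change 0.70, edgeR adjusted p = 7.04e-10) and PTPRS to 15.7 ± 0.585 FPKM from 9.63 ± 0.654 in wild-type cells (SD, n = 3; log2 fold change 0.68, edgeR adjusted p = 5.14e-09). The 2 that fell were NCL, the gene of nucleolin, an abundant nucleolar protein that also binds midkine (log2 fold change -0.23, 256 ± 8.37 to 223 ± 1.58 FPKM), and the integrin subunit ITGB1 (-0.36), named after its value was seen. ITGB1 lies on chromosome 10, whose 492 tested genes had a median of -0.36. LTK, a kinase related to ALK, did not pass (1.40 ± 0.156 against 1.16 ± 0.0777 FPKM, SD, n = 3; log2 fold change 0.24, edgeR adjusted p = 0.226). ALK was listed at 0 FPKM in all libraries but mutant library 3, where it stood at 0.02.

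Genes that build the heparan sulfate chain went both ways. Of 28 listed, 17 were tested, of which 6 rose, 3 fell and 8 did not pass, with a median log2 fold change of 0.0056, near that of all tested genes. EXTL2, a transferase that can end or prime chains, rose to 15.2 ± 0.570 FPKM from a wild-type 10.1 ± 0.240 (SD, n = 3; log2 fold change 0.56, edgeR adjusted p = 2.64e-07). XYLT2, which adds the first xylose to the core protein, rose to 7.37 ± 0.0635 FPKM from a wild-type 5.24 ± 0.247 (SD, n = 3; log2 fold change 0.46). The 3 that fell were EXT1 of the chain polymerase (-0.33), the 3-O-sulfotransferase HS3ST3B1 (-0.49, 4.87 ± 0.620 to 3.54 ± 0.136 FPKM) and the linker enzyme B3GALT6 (-0.22), the last named after its value was seen. B3GALT6 was close to the threshold (edgeR adjusted p = 0.0437) and its groups overlapped. Of this list 2 genes were called lower without mutant replicate 2 or 3, or without wild-type replicate 1 or 2, and 4 without wild-type replicate 3.

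The next list holds genes that edit or break down the finished chain. Of 12 listed, 8 were tested, of which 5 rose, while SGSH and GUSB did not pass, with a median of 0.31. SULF1, a secreted enzyme that strips 6-O-sulfate from heparan sulfate outside the cell, stood at 4.40, 4.72 and 4.70 FPKM across the mutant libraries, against 1.23, 1.06 and 1.09 across the wild type. All mutant values were high and all wild-type values near the expression minimum. SULF1 rose by a log2 fold change of 2.00 (SE 0.08, edgeR adjusted p = 2.93e-12), the largest difference among the pathway genes tested here. Its relative SULF2 rose by 0.29 (8.61 ± 0.482 to 10.8 ± 0.120 FPKM, SD, n = 3; edgeR adjusted p = 1.73e-04). HPSE, heparanase, which cuts the chain, rose by 0.72 (2.02 ± 0.0985 to 3.39 ± 0.307 FPKM), and NAGLU of lysosomal breakdown by 0.71 (6.26 ± 0.384 to 10.5 ± 0.201 FPKM). The lysosomal gene HGSNAT, named after its value was seen, rose by 0.34.

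Of 12 listed genes that supply sugar and sulfate donors, 11 were tested, of which 2 rose, 3 fell and 6 did not pass, with a median of -0.05. Over all tested genes 29.4% were called higher and 28.7% lower, and the share of this list called lower is near that background. SLC26A2, a sulfate transporter of the plasma membrane, rose by 0.53 (6.59 ± 0.249 to 9.73 ± 0.754 FPKM, SD, n = 3), and PAPSS1, a synthase of the activated sulfate donor, by 0.37 (25.1 ± 1.37 to 33.2 ± 0.984 FPKM). The Golgi donor transporter SLC35B3 changed by -0.41, the second synthase PAPSS2 by -0.29 and UGP2, named after its value was seen, by -0.17. PAPSS2 lies on chromosome 10. Its call, like that of UGP2, is close to the threshold (edgeR adjusted p = 0.0248 for PAPSS2). PAPSS2 was not called without mutant replicate 2 or 3 or without wild-type replicate 1 or 3 (adjusted p = 0.0647 to 0.133 in edgeR), and without mutant replicate 2 or without mutant replicate 3 only 1 gene of this list was called lower.

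Of 12 other heparan sulfate proteoglycans listed, 7 were tested, of which 5 rose, 1 fell and TGFBR3 did not pass, with a median of 0.40. Over all tested genes 29.4% were called higher and 28.7% lower. GPC5 is counted among the 5, though it was tested only through its mutant level. SPOCK3, a testican of the extracellular matrix, rose to 6.35 ± 0.532 FPKM from a wild-type 2.91 ± 0.280 (SD, n = 3; log2 fold change 1.09, edgeR adjusted p = 3.08e-08). COL18A1, a basement membrane collagen that carries heparan sulfate, rose to 6.45 ± 0.537 FPKM from a wild-type 3.72 ± 0.136 (SD, n = 3; log2 fold change 0.76). AGRN, agrin, rose by 0.38 and is named after its value was seen, and GPC1 and GPC5 are described above. NRP1, a coreceptor that can carry a glycosaminoglycan chain, fell to 1.24 ± 0.0656 FPKM from a wild-type 2.21 ± 0.150 (SD, n = 3; log2 fold change -0.86, edgeR adjusted p = 2.38e-07) and lies on chromosome 10.

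Chondroitin sulfate, which also binds pleiotrophin, shares its linker with heparan sulfate. Of 24 listed genes of chondroitin and dermatan sulfate, 16 were tested, of which 8 rose, 3 fell and 5 did not pass, with a median of 0.23. The epimerase gene DSEL, counted among the 8, stood at 1.48 ± 0.0814 FPKM for mutant and 0.727 ± 0.0252 for wild type (SD, n = 3). It passed the expression minimum only through the mutant. With no expression minimum its log2 fold change was 0.96 (edgeR adjusted p = 2.08e-12, from the separate fit over 32852 genes and not to be ranked against the others). The other epimerase gene, DSE, rose by 0.41, the core protein versican (VCAN) by 0.67 (5.92 ± 1.29 to 9.65 ± 0.541 FPKM) and the polymerase subunit CHPF by 0.52 (7.56 ± 0.746 to 11.1 ± 0.821 FPKM). The 3 that fell, CHPF2 (-0.37), CHST12 (-0.26) and CSGALNACT2 (-0.17), are named after their values were seen. CSGALNACT2 lies on chromosome 10 and had an adjusted p of 0.0496 in edgeR, and without mutant replicate 2 a single gene of the list was called lower. On the same chromosome, CHST15 of this list was called higher (log2 fold change 0.23) and CHST3 was not called, both also named after their values were seen.

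Of 15 listed intracellular partners, sheddases and anchor-releasing enzymes, 11 were tested, of which 7 rose, 1 fell and 3 did not pass, with a median of 0.14. PRKCA, the protein kinase that syndecan 4 recruits, rose to 7.73 ± 0.278 FPKM from a wild-type 4.37 ± 0.466 (SD, n = 3; log2 fold change 0.79, edgeR adjusted p = 1.59e-08). The proprotein convertases PCSK5 and FURIN, the second of which processes glypican cores, rose by 0.46 and 0.35, and the scaffold gene CASK by 0.15 (edgeR adjusted p = 0.0196). CASK was not called without mutant replicate 1 (edgeR adjusted p = 0.0601), mutant replicate 3 (0.0511) or wild-type replicate 3 (0.123), nor with no expression minimum (0.158). SDCBP, the gene of syntenin, which binds the syndecan tail, stood at 37.6 ± 1.33 FPKM in the mutant and 37.6 ± 0.952 in the wild type (SD, n = 3; log2 fold change -0.03), and GIPC1 changed by -0.14. Both are named after their values were seen. The smaller differences of this list depended on single libraries: the number called higher was 3 without mutant replicate 1, 3 without mutant replicate 3 and 4 without wild-type replicate 1, and GIPC1 was not called without any of these or without mutant replicate 2.

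FGF receptors, which need heparan sulfate to signal, and heparin-binding growth factors were the last group. Of 21 listed, 10 were tested, of which 6 rose and 3 fell, while VEGFB did not pass, with a median of 0.30. FGF2 rose to 4.86 ± 0.295 FPKM from a wild-type 2.64 ± 0.345 (SD, n = 3; log2 fold change 0.85, edgeR adjusted p = 3.46e-07), VEGFA to 4.12 ± 0.269 FPKM from 2.31 ± 0.0702 in wild-type cells (log2 fold change 0.80) and the receptor FGFR4 to 10.2 ± 0.556 FPKM from 6.81 ± 0.621 in wild-type cells (log2 fold change 0.55). HDGF, an abundant nuclear heparin-binding factor, fell to 193 ± 5.88 FPKM from a wild-type 224 ± 3.91 (SD, n = 3; log2 fold change -0.25). FGFR2 (-0.39) and FGFR3 (-0.28) also fell and are named after their values were seen, and FGFR2 lies on chromosome 10.

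**Figure D4:**
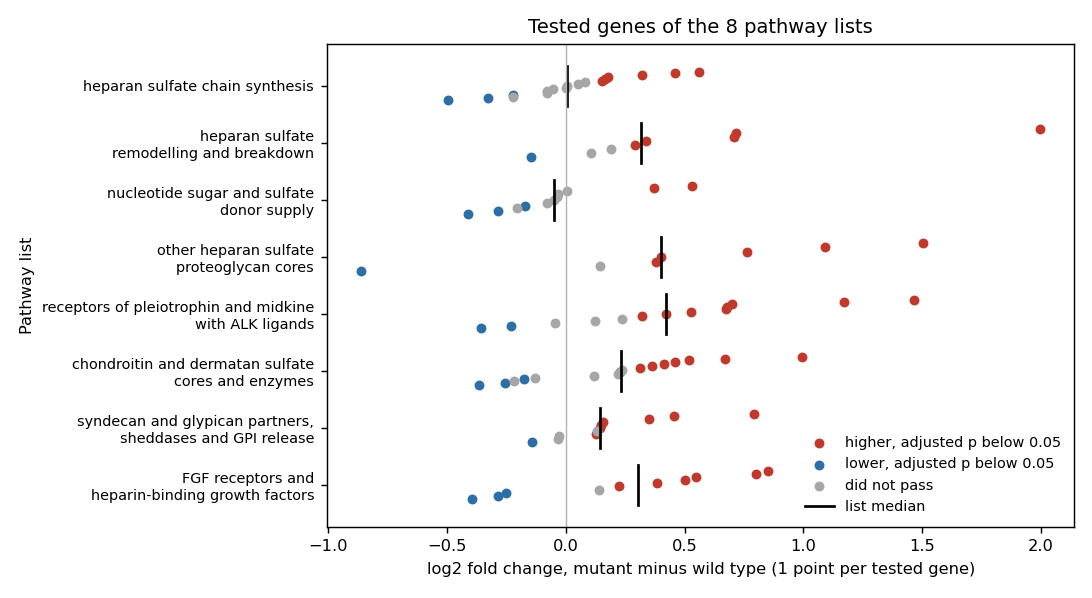
Log2 fold change of each tested gene of the 8 pathway lists, in red where it was called higher, in blue where it was called lower and in grey where it did not pass, with a black bar at the list median. Medians run from -0.05 for donor supply to 0.42 for the receptors, and SULF1 at 2.00 is the point farthest to the right.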

How the data were processed

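Poly(A) RNA from 6 HEK293 libraries had been sequenced as paired ends, per the labels' protocols. The deposited table holds raw counts per gene and FPKM for each library, per the file headers. The authors' tools were cutadapt, HISAT2 2.0.1 and HTSeq, with the GRCh38 build, per the submitters' processing notes. These sources name neither the annotation release nor the strand setting. Recomputing FPKM with gene lengths gave values within 0.005 of the deposited FPKM.

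The 10 genes and the 8 pathway lists (142 entries, all matched by symbol) were chosen with earlier results of these data known. Genes with a mean of at least 1 FPKM were tested on the counts with edgeR 4.0.16 (quasi-likelihood, R 4.3.3), two-sided, with TMM scaling (factors 0.980 to 1.02) and genotype as the only factor. P-values were adjusted over all 12550 genes by the Benjamini-Hochberg method and called below 0.05. The code was tested on simulated data. The common biological coefficient of variation was 0.0478. No 2 libraries of a group agreed within sampling noise (chi-square per degree of freedom at least 2.19). Lists are described by counts and medians, without a set test.

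Named genes are the 10, per list up to 4 with the lowest adjusted p, PTPRZ1, ALK, LTK, LRP1, NCL, GPC1 and GPC5, the 5 genes most like PTN, and tested neighbours within 1 Mb. Alternatives were median-of-ratios scaling, library totals, no filter, a mean of at least 5 FPKM, DESeq2 1.42.0, limma 3.58.1 on log2(FPKM + 1) and log2(FPKM + 0.1), the replicate number as block, and leaving out each library. The result for 1 gene of the breakdown list is not reported here.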

Additional observations from a re-analysis of the deposited data

How the results depend on the processing

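The log2 fold changes of the 10 genes stayed above 0 under every alternative that could be fitted. They moved by more than the replicate spread in limma on log2(FPKM + 1), where the pseudocount shrinks low levels: 2.28 for PTN and 0.61 for GPC2. That for MDK ran from 0.03 to 0.20 with 1 library left out. The number of the 10 called higher was 7 without mutant replicate 3, which takes GPC2 under the expression minimum, 9 without wild-type replicate 3 and 8 without any other single library. It was 6 with a minimum mean of 5 FPKM, which leaves PTN, GPC2 and GPC3 untested. With 1 library left out, 3259 to 3787 genes in all were called higher, of 12480 to 12612 tested. With the minimum of 5 FPKM it was 2300 of 7304. Nothing is read from the counts of the 10, since the same values chose the genes.

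With that minimum, 2300 genes in all were called higher and 2297 lower. The counts called higher fell to 2 for chain breakdown, 1 for other proteoglycan cores, 3 for receptors and 2 for FGF receptors and factors, and those called lower to 0 for chain synthesis, donor supply, other cores and partners and 1 for chondroitin sulfate. Fewer genes were tested, but B3GALT6, PAPSS2, UGP2 and GIPC1 were still tested and lost their calls (edgeR adjusted p = 0.074 for PAPSS2). Each of the 10 genes that stayed tested had a slightly higher log2 fold change, for example 0.17 in place of 0.13 for MDK and 0.33 in place of 0.28 for SDC2. The log2 fold change of HDGF likewise moved from -0.25 to -0.21. With no filter, 10 FGF receptors and factors and 4 partners were called higher, and 2 other cores and 2 partners lower. DESeq2 called 4 partners higher. Genes called lower numbered 1 for donor supply and 0 for partners with library totals, and in both limma fits 1 for chondroitin sulfate, 1 for donor supply and 0 for partners. With 1 library left out, genes called lower ranged from 1 to 3 for chondroitin sulfate, 1 to 3 for donor supply and 0 to 1 for partners, and partners called higher from 3 to 7. The cause of these differences was not tested.

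With the replicate number as a block, 3584 genes were called higher and 3485 lower, and 8 of the 10 genes were called higher. Libraries of the same number did not deviate together (correlations of 0.018, -0.059 and -0.048), and 1 of 6 libraries matched its own number best, so the numbers were not taken as pairs. Counts of 14 to 19 limit the precision of PTN in the wild type.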
